A study of Mus musculus with 11 samples.

Results

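The Hedgehog genes described here are 9 members of 1 signalling pathway: the receptors Ptch1 and Hhip, the co-receptors Boc, Cdon and Gas1, the transducer Smo, and the transcription factors Gli1, Gli2 and Gli3. They were chosen by symbol, and all 9 were found among the 24062 genes of the Ift88 count table and the 26667 genes of the Dzip1 count table. RNA sequencing was run on mouse mitral valve leaflets. In the Ift88 experiment 3 knockout libraries, NfatC1Cre(+) with Ift88f/f, stood against 2 wild-type libraries, NfatC1Cre(+) with Ift88+/+, so both groups carry the Cre. In the Dzip1 experiment 3 libraries heterozygous for the S14R allele, Dzip1 S14R/+, stood against 3 Dzip1 +/+ libraries. The Cre is driven by Nfatc1, a gene of valve endocardium, and whole leaflets were sequenced, so cells outside that lineage keep Ift88. The titles mark the Ift88 libraries as re-analysed. No age of the mice is given in the sources used here. It is not stated that the libraries of a group come from separate animals, and p-values then describe the spread among these libraries, which may be technical.

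Hedgehog ligands bind Ptch1, a membrane protein that holds Smo inactive when no ligand is bound. Boc, Cdon and Gas1 bind ligand together with Ptch1, and Hhip is a decoy that binds ligand at the cell surface. In vertebrates the signal passes through the primary cilium, where active Smo turns Gli2 and Gli3 from repressors or inactive proteins into activators. Gli1, Ptch1 and Hhip are themselves target genes of the pathway, so their transcripts are commonly read as its output. Ift88 is needed to build the cilium, and the zinc finger protein Dzip1 acts at the base of the cilium.

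In the GENCODE M21 annotation of GRCm38, Ptch1 lies at chr13:63508328-63573598, Hhip at chr8:79965851-80058006, Boc at chr16:44485049-44558897, Cdon at chr9:35421128-35507652 and Gas1 at chr13:60174405-60177365. Smo lies at chr6:29735503-29761365, Gli1 at chr10:127329882-127341974, Gli2 at chr1:118834132-119053619 and Gli3 at chr13:15463235-15730026. Promoter sequences were available for 7 of the 9 genes in the RefSeq table (GRCm38.p6), and not for Gli1 and Boc. The 250 bases before the start site that RefSeq gives are shown for Ptch1 and Hhip, as target genes of the pathway, and for Gli2 and Gli3, whose knockout and wild-type libraries did not overlap in the Ift88 experiment. They are written 5′ to 3′ on the strand of the gene, and capitals mark the 6 bases CCACCC or their reverse complement GGGTGG, the inner part of the Gli binding motif GACCACCCA. The windows are chr13:63565736-63565985 (reverse strand) for Ptch1, chr8:80058009-80058258 (reverse strand) for Hhip, chr1:119053620-119053869 (reverse strand) for Gli2 and chr13:15463473-15463722 (forward strand) for Gli3. The windows of Ptch1, Gli3 and Cdon lie inside the GENCODE intervals given above, so they belong to a start site downstream of the first one annotated there.
Ptch1: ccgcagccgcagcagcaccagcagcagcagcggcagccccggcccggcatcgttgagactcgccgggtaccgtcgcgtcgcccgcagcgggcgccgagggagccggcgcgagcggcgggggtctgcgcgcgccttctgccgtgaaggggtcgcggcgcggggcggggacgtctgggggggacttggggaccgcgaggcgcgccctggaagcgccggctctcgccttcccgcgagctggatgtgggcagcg
Hhip: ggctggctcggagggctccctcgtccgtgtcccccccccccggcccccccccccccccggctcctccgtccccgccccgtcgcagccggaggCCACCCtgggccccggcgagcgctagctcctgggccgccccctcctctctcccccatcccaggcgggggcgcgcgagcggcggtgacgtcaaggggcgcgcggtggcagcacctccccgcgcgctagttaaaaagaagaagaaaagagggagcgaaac
Gli2: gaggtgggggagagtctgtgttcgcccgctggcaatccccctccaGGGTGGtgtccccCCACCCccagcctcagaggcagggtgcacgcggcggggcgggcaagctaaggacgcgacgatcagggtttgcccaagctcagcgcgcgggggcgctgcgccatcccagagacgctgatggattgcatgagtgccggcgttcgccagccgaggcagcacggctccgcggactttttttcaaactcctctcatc
Gli3: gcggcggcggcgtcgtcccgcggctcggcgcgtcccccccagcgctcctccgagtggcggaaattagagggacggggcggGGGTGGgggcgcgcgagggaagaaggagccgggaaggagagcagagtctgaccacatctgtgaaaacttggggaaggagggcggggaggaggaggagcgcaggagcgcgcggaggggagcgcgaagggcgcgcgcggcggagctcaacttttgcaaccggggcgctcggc
The whole motif GACCACCCA, searched on both strands, was in none of the 7 windows and in 0.225% of all 32851 promoter windows of this length. The 6-base part was in the windows of Gli2, Gli3, Hhip and Smo, and 28.1% of all windows hold it. Counted from the start site it begins at positions -205 and -192 in Gli2, -170 in Gli3, -158 in Hhip and -162 in Smo. The Ptch1 window, with 78.4% G and C against a median of 52.4% over all windows, holds no copy. The windows of Gli2, Gli3, Hhip and Smo had 67.2%, 72.8%, 76% and 68.4% G and C, above the same median. Those of Cdon and Gas1, without a copy, had 42.8% and 58.8%. No share over windows of similar G and C content was taken.

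The Ift88 libraries varied far more among themselves than the Dzip1 libraries. Total counts were 23.4 to 53.8 M in the Ift88 experiment and 75.1 to 93.5 M in the Dzip1 experiment, and the biological coefficient of variation was 87.7% and 7.85%. Markers of valve interstitial cells (14 genes) and valve endothelium (10 genes) had counts in every library of both experiments. The Ift88 wild-type libraries differed in content. Summed over 14 cardiomyocyte markers, wild-type replicate 1 held 71200 CPM (counts scaled to library size), wild-type replicate 2 held 113, and the knockout libraries 29300 to 39700. The valve interstitial markers summed to 3030 and 7870 CPM in the wild type and 8540 to 12300 in the knockout. The endothelial markers summed to 342 CPM in wild-type replicate 1 and 1470 to 2610 in the other libraries. Ift88 itself stood at 7.54 and 19.8 CPM in the wild type and at 3.00, 3.92 and 0.409 in the knockout, with no overlap, and edgeR gave a log2 fold change of -2.48 ± 1.13 (SE; adjusted p = 0.802). In bulk tissue, fewer cells of a type and less RNA per cell cannot be told apart.

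The first comparison asks how the transcripts of the pathway differ in leaflets with Ift88 knocked out. The co-receptor genes Cdon, Boc and Gas1, the receptor gene Ptch1 and the factors Gli2 and Gli3 had higher mean levels in the knockout, and of these Cdon, Gli2 and Gli3 separated the genotypes. Of the 9 genes, 8 passed the filter on low counts and Hhip did not. With edgeR, 0 of the 8 passed an adjusted p of 0.05, as did 0% of all 14244 genes tested. At an unadjusted p of 0.05 there was 1, Gli2, against 6.01% of all genes, 4.75% higher and 1.26% lower in the knockout. Gli2 had no wild-type count and passed the filter only through the knockout libraries, so its p and its separation are no support for a difference. Of the 8 tested, 6 log2 fold changes were above 0 and 2 below, with a median of 1.47 beside -0.01 for all genes, 49.4% of which were above 0. DESeq2 and limma-voom also called 0 of the members, while DESeq2 called 2.33% of all genes and limma-voom 0%. In 3 of the 8 (Cdon, Gli2 and Gli3) the knockout libraries were all higher than either wild-type library, as in 13.5% of all genes tested. Another 11.1% were lower throughout, with 0 members among them. Cdon, with 14 and 0 wild-type counts, also passed the filter only through the knockout libraries. Gli3, with 3 and 259, did not pass it on the wild type alone. These 3 separations are therefore no support for a difference, and the 6 values above 0 include the same genes.

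**Figure D1:**
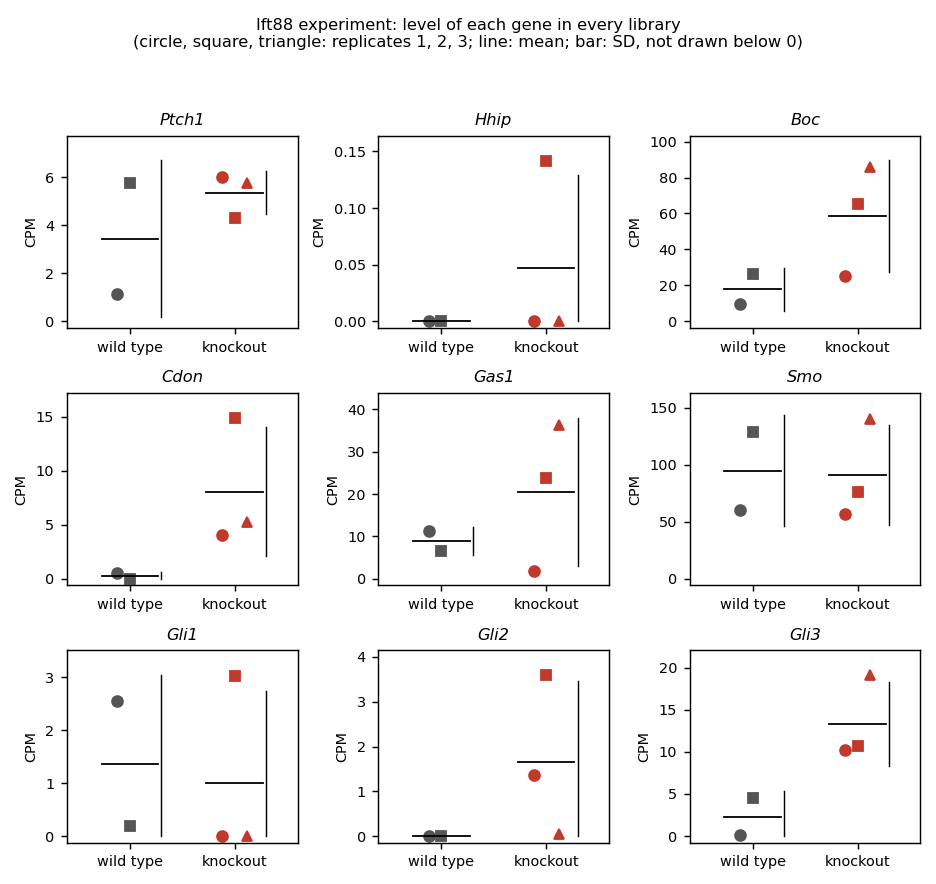
Level of each Hedgehog gene in the Ift88 experiment in CPM on a linear axis from 0, with 1 point per library, a line at the group mean and a bar for the SD (not drawn below 0). Cdon, Gli2 and Gli3 show all 3 knockout points above both wild-type points, while in the panels of Ptch1, Smo, Gas1 and Gli1 the groups overlap.

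Ptch1 is the ligand receptor and a target gene. It stood at 1.14 and 5.75 CPM in the wild-type libraries, from 30 and 332 counts, and at 6.00, 4.32 and 5.77 CPM in the knockout libraries, from 190, 183 and 141 counts. The knockout libraries lay close together and wild-type replicate 2 lay among them, so that only wild-type replicate 1 was low. The log2 fold change was 0.63 ± 1.1 (SE; edgeR adjusted p = 0.96), and it was -0.13 without wild-type replicate 1 and 2.23 when replicate 2 was left out instead. Hhip, the decoy receptor, had 6 counts in knockout replicate 2 and none in any other library. A count of 0 allows a level of up to 0.0520 to 0.123 CPM in those 4 libraries. Hhip was therefore at or near the limit of detection throughout this experiment.

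Boc encodes an immunoglobulin and fibronectin repeat protein that binds Hedgehog ligand. It stood at 9.36 and 26.2 CPM in the wild type and at 24.9, 65.0 and 86.1 in the knockout, from 246 to 2755 counts. Knockout replicate 1 lay just below wild-type replicate 2, and the other knockout libraries exceeded both. The log2 fold change was 1.72 ± 0.72 (SE), with a 95% interval of -0.04 to 3.48 (edgeR adjusted p = 0.802). It was 1.13 without wild-type replicate 1 and 2.65 when replicate 2 was left out instead.

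Cdon encodes the paralog of Boc. It had 14 counts in wild-type replicate 1 and none in wild-type replicate 2, or 0.533 and 0 CPM, and 128, 632 and 128 counts in the knockout libraries, or 4.04, 14.9 and 5.24 CPM. The groups did not overlap, and the lowest knockout library had more counts than both wild-type libraries together. The log2 fold change was 4.95 ± 2.16 (SE; edgeR adjusted p = 0.802), with a 95% interval of -0.30 to 10.19. It was 3.91 without wild-type replicate 2, the library at 0. Without wild-type replicate 1 the remaining wild-type library has no count, and the fitted value of 11.28 is no measure of the size.

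Gas1 encodes a surface protein anchored by a lipid that also presents ligand to Ptch1. It stood at 11.2 and 6.60 CPM in the wild type and at 1.71, 23.7 and 36.3 in the knockout, from 54 to 1005 counts. The knockout libraries lay on both sides of the wild type, with replicate 1 the lowest of all and replicates 2 and 3 the highest. The log2 fold change was 1.21 ± 1.17 (SE; edgeR adjusted p = 0.916), and 0.52 without knockout replicate 3. Smo, the transducer, was the member with the most counts, 1584 to 7464. It stood at 60.3 and 129 CPM in the wild type and at 56.3, 75.9 and 140 in the knockout, so that each group spanned the same range. Its log2 fold change of -0.06 ± 0.54 (SE; edgeR adjusted p = 0.992) has a 95% interval of -1.38 to 1.25, or 0.385-fold to 2.38-fold, and it changed sign between -0.55 and 0.59 with the library left out.

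Gli1 encodes an activator whose transcript is a direct target of the pathway. It stood at 2.55 and 0.191 CPM in the wild type, from 67 and 11 counts. In the knockout it had no count in replicates 1 and 3, which allows up to 0.0948 and 0.123 CPM, and 3.02 CPM from 128 counts in replicate 2. The highest library of all was thus a knockout library and the 2 lowest were too, and the log2 fold change was -0.44 ± 2.85 (SE; edgeR adjusted p = 0.991). It was 2.33 without wild-type replicate 1 and -1.33 when replicate 2 was left out instead. Exons of Gli1 overlap the gene Arhgap9 on the other strand, and the strand setting of the counting is not given in the sources used here. Exons of Gas1 (Gm48488), Gli3 (Gm6556) and Hhip (Gm27820) also overlap genes on the other strand, as do those of Gli1 with Gm47200. Arhgap9 had 90 and 176 counts in the wild type and 11, 5 and 13 in the knockout, which did not follow the Gli1 counts, and its part in them was not tested.

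Gli2 encodes the main activator of the pathway. It had no count in either wild-type library, which allows up to 0.114 and 0.0520 CPM, and 43, 152 and 1 counts in the knockout libraries, or 1.36, 3.59 and 0.0409 CPM. The pooled group totals of 196 and 0 give a ratio of at least 55.7, with a floor of 3 counts over the wild-type group. This bound covers counting error only and leaves out the spread among libraries. It is therefore no bound on a difference between the genotypes. Of the 196 counts, 152 came from knockout replicate 2, and without that library the bound is 22-fold, a value added after seeing the data. The separation in knockout replicate 3 rests on 1 count, which lies below what a count of 0 would allow in the wild-type libraries. The edgeR test gave an adjusted p = 0.802, and over the alternatives that tested the gene the adjusted p ran from 0.112 to 0.907.

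Gli3, which acts mostly as a repressor when no ligand is present, had 3 and 259 counts in the wild type, or 0.114 and 4.49 CPM. In the knockout it had 324, 452 and 467 counts, or 10.2, 10.7 and 19.1 CPM. Its knockout libraries all lay above the wild type, and the 2 wild-type libraries differed from each other by more than wild-type replicate 2 differed from any knockout library in fold terms. The log2 fold change was 2.53 ± 1.45 (SE; edgeR adjusted p = 0.844), 1.54 without wild-type replicate 1 and 6.82 when replicate 2 was left out instead.

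**Figure D2:**
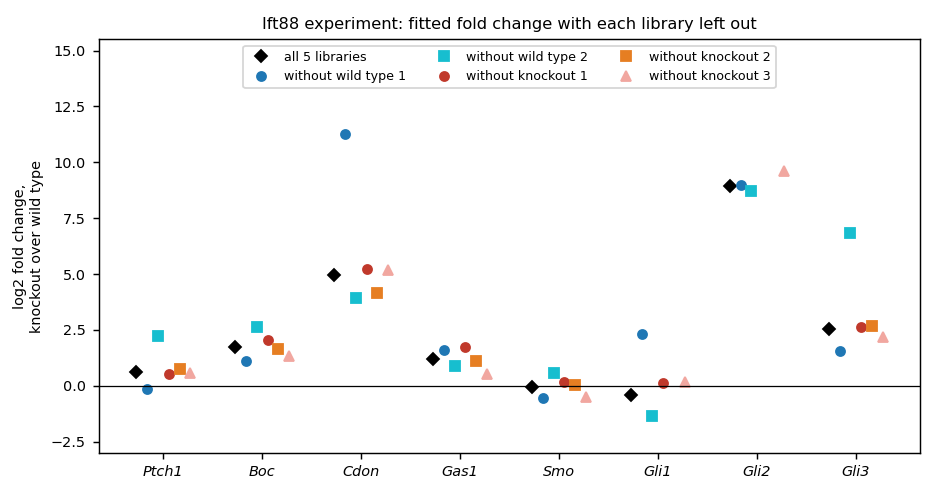
Fitted log2 fold change of knockout over wild type on the vertical axis for the 8 Hedgehog genes tested in the Ift88 experiment, with all 5 libraries and with each library left out. Boc, Gas1 and Gli3 keep positive values in each fit, from 1.13 to 2.65 for Boc, whereas Ptch1, Smo and Gli1 fall on both sides of 0. Gli2 has no value without knockout replicates 1 or 2, and Gli1 none without knockout replicate 2, as they then failed the filter.

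The wild-type library with almost no cardiomyocyte transcript, replicate 2, and the one with few endothelial transcripts, replicate 1, differed in Ptch1 and Gli3, which were lower in replicate 1, while Cdon was low in both and Gli2 had no count in either. Valve interstitial markers were higher in all 3 knockout libraries than in either wild-type library, as were Cdon, Gli2 and Gli3, and their part in these values was not tested. The 6 epicardial and mesothelial markers summed to 216 CPM in knockout replicate 2 and to 7 to 28.7 in the other libraries. That library also had the highest Cdon, Gli2 and Gli1 levels and the only Hhip counts, and the part of these markers was not tested either. Of the 6 markers, none was at 0 in knockout replicate 2 and 2 or 3 were at 0 in each other library, Upk3b or Wt1 among them. The libraries with the title prefix IR28N were wild-type replicate 1 and knockout replicates 1 and 2. Among these alone, the log2 fold change was 2.26 for Boc, 4.14 for Cdon and 6.47 for Gli3. It was 2.17 for Ptch1, 0.18 for Gas1, 0.13 for Smo and -0.75 for Gli1. This subset leaves out wild-type replicate 2, so it is no separate check on the fits without that library.

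The second comparison asks how the same transcripts differ in leaflets carrying 1 S14R allele of Dzip1. All 9 genes had counts in every library, though Hhip had only 1 in wild-type replicate 1. The filter was passed by 8, again without Hhip. The largest separation was that of Boc, which was lower in all 3 S14R/+ libraries. With edgeR 0 of the 8 passed an adjusted p of 0.05, as did 0% of all 16160 genes tested, and DESeq2 and limma-voom called 0 members and 0% of all genes. At an unadjusted p of 0.05 in edgeR there was 1 member, Boc, against 5.93% of all genes, 2.41% higher and 3.53% lower in S14R/+. The groups did not overlap in 1 of the 8, Boc, and 5.01% of all genes had every S14R/+ library below every wild-type library and 5.27% had them all above. All 8 log2 fold changes were below 0, against 50.1% of all genes, with a median of -0.07 beside -0.0003 for all genes, and all but Gli1 lay between -0.21 and -0.03. The 14 cardiomyocyte markers summed to 38400 to 44000 CPM in the wild type and 45300 to 45800 in S14R/+, without overlap, and their part in these values was not tested.

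**Figure D3:**
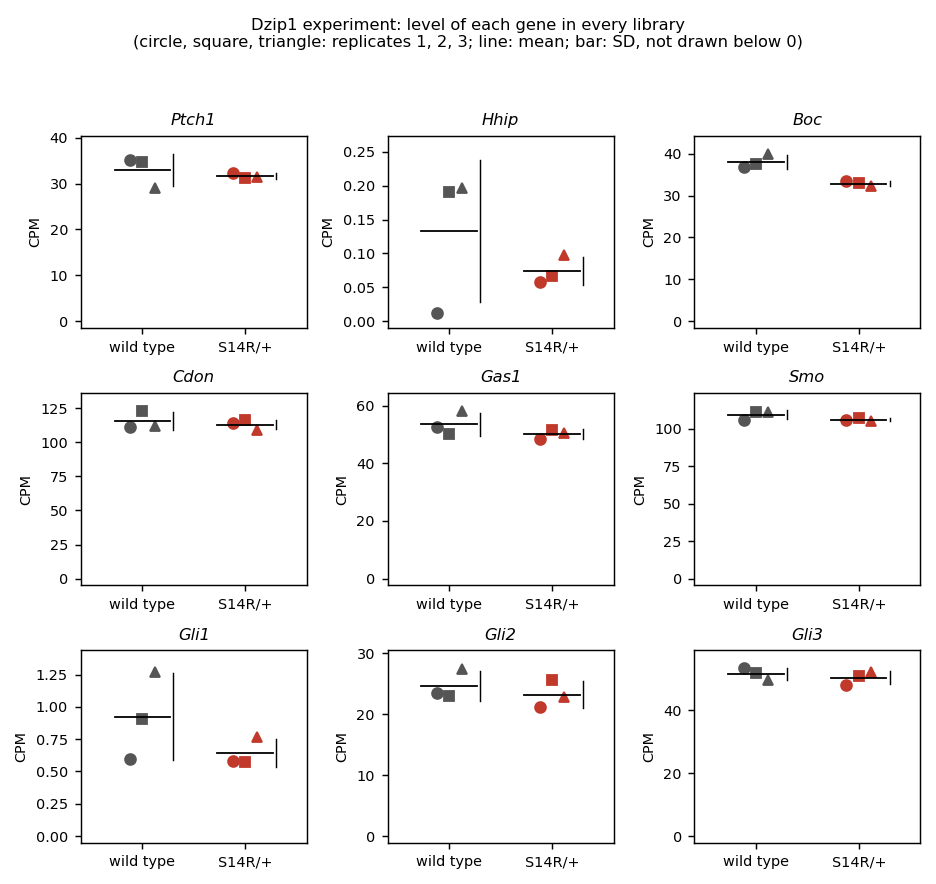
Level of each Hedgehog gene in the Dzip1 experiment in CPM on a linear axis from 0, with 1 point per library, a line at the group mean and a bar for the SD. Boc is the panel in which the S14R/+ points, 32.2 to 33.5, lie apart from the wild-type points, 36.8 to 39.9.

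Boc stood at 36.8, 37.5 and 39.9 CPM in the wild type and at 33.5, 32.9 and 32.2 in S14R/+, or 38.1 ± 1.62 against 32.9 ± 0.614 (SD, n = 3 each). The groups did not overlap and the gap between them was wider than the range within S14R/+. The raw counts did overlap, at 2907, 2937 and 3049 against 2873, 2960 and 2991, since the S14R/+ libraries were deeper, at 86.0 to 93.5 M against 75.1 to 79.1 M. The log2 fold change was -0.21 ± 0.05 (SE), with a 95% interval of 0.8-fold to 0.932-fold. Its edgeR p of 0.00159 was the tenth smallest of the 16160 genes but gave an adjusted p of 0.822. DESeq2 gave an adjusted p of 0.245, and over all alternatives it ran from 0.115 (without wild-type replicate 2) to 1, while the log2 fold change stayed between -0.24 and -0.18. Valve interstitial markers summed to 8320, 9170 and 9860 CPM in the wild type and 7980 to 8450 in S14R/+, and their part in the Boc value was not tested.

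The other co-receptors overlapped between the genotypes. Cdon stood at 111, 123 and 112 CPM in the wild type and 114, 116 and 109 in S14R/+, with a log2 fold change of -0.03 ± 0.05 (SE; edgeR adjusted p = 0.923). Gas1 stood at 52.4, 50.3 and 58.0 CPM against 48.3, 51.5 and 50.6, with -0.10 ± 0.06 (SE; edgeR adjusted p = 0.843). The 95% intervals reach from 0.910-fold to 1.05-fold for Cdon and from 0.859-fold to 1.02-fold for Gas1.

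The receptor Ptch1 stood at 35.2, 34.7 and 29.0 CPM in the wild type and 32.4, 31.2 and 31.5 in S14R/+. The S14R/+ libraries lay inside the wild-type range, whose lowest value was replicate 3, and the log2 fold change was -0.06 ± 0.07 (SE; edgeR adjusted p = 0.911) with a 95% interval of 0.860-fold to 1.08-fold. Hhip had 1, 15 and 15 counts in the wild type and 5, 6 and 9 in S14R/+, so that the S14R/+ counts lay between those of the wild-type libraries. At such counts no difference was detectable. Smo stood at 106, 111 and 111 CPM against 106, 107 and 105, with -0.04 ± 0.03 (SE; edgeR adjusted p = 0.866) and a 95% interval of 0.922-fold to 1.02-fold, the narrowest of the 8.

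Gli1 was the factor with the fewest counts and the widest spread. It stood at 0.595, 0.906 and 1.27 CPM in the wild type, from 47, 71 and 97 counts, and at 0.582, 0.577 and 0.765 in S14R/+, from 50, 52 and 71 counts. Wild-type replicate 1 lay among the S14R/+ libraries and replicates 2 and 3 lay above them. The log2 fold change was -0.52 ± 0.30 (SE), with a 95% interval of -1.20 to 0.16 (edgeR adjusted p = 0.843), and the log2 fold change was -0.23 without wild-type replicate 3. Gli2 stood at 23.5, 23.0 and 27.4 CPM against 21.2, 25.6 and 22.8, with -0.09 ± 0.09 (SE; edgeR adjusted p = 0.891). Gli3 stood at 53.4, 51.8 and 49.7 CPM against 48.2, 50.9 and 52.2, with -0.03 ± 0.05 (SE; edgeR adjusted p = 0.915). Neither factor separated the genotypes, and the 95% intervals were 0.824-fold to 1.07-fold for Gli2 and 0.910-fold to 1.05-fold for Gli3.

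**Figure D4:**
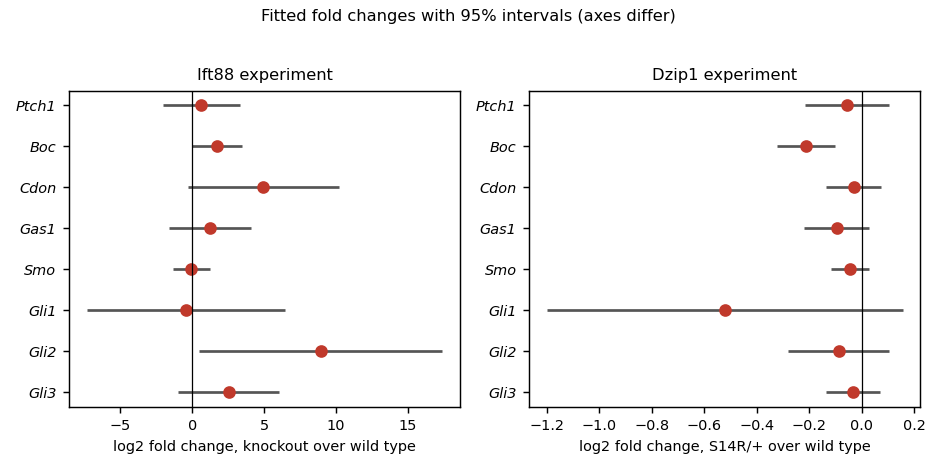
Fitted log2 fold change of mutant over wild type with its 95% interval on the horizontal axis for the 8 Hedgehog genes tested, with different axis ranges in the 2 experiments. The interval of Gli1 runs from -7.34 to 6.47 in the Ift88 panel and from -1.20 to 0.16 in the Dzip1 panel, and Boc is the member whose interval lies below 0 in the Dzip1 panel.

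Compared per kb of exon, the members were well spread out in the Dzip1 libraries. Smo led with 28.5 ± 0.681 CPM per kb (SD over the 6 libraries), followed by Gas1 with 17.5 (16.3 to 19.6 over the libraries), Cdon with 15.2 ± 0.693, Boc with 7.97 ± 0.687 and Gli3 with 6.13 ± 0.224. Ptch1 had 4.14 ± 0.297, Gli2 3.6 ± 0.335, Gli1 0.193 ± 0.067 and Hhip 0.0114 ± 0.00825. The library ranges of Gas1 and Cdon overlapped, as did those of Ptch1 and Gli2, and each other pair of neighbours was separate. The transducer and the co-receptors were thus above the receptor, and the targets Gli1 and Hhip lay lowest. In the Ift88 libraries, which come from a separately counted table, each neighbouring pair overlapped. Smo led there too, with 14.9 to 37.0 CPM per kb, while Gli3 ran from 0.0137 to 2.30 and Cdon from 0 to 1.99.

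**Figure D5:**
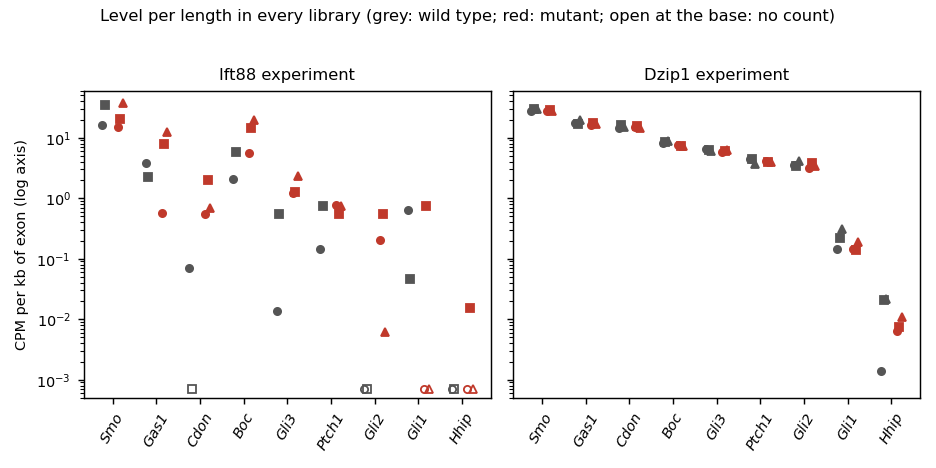
Level per kb of exon on a log axis for each Hedgehog gene and library, with grey points for wild type, red points for mutants and open points at the base for libraries with no count. In the Dzip1 panel the points of a gene lie within 1.05-fold (Smo) to 2.20-fold (Gli1) of each other except for Hhip, while in the Ift88 panel Gli3 spans 167-fold.

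Of the further genes of the pathway, 59 were in each table, in lists of ligands and their release, other receptors, ciliary regulators, kinases and ligases that process Gli proteins, and further targets. In the Ift88 experiment 54 were tested and edgeR called 0, with 4 at an unadjusted p of 0.05, against 6.01% of all genes. Their median log2 fold change was 0.55, with 40 above 0, against -0.01 and 49.4% above 0 for all genes. In the Dzip1 experiment 55 were tested and edgeR called 0, with 5 at an unadjusted p of 0.05, against 5.93% of all genes. Their median was -0.02, with 19 above 0, against 49.9% of all genes. The groups did not overlap in 13 of the 54 in the Ift88 experiment, all higher in the knockout, where 13.5% of all genes were higher and 11.1% lower throughout. In the Dzip1 experiment they did not overlap in 4 of the 55, all lower in S14R/+, where 5.01% of all genes were lower and 5.27% higher throughout. DESeq2 called 2 of these genes in the Ift88 experiment, Tbx5 and Scube3, against 2.33% of all genes, and 0 in the Dzip1 experiment. Scube3 is named there because of its call, after its values were seen, and had no count in either wild-type library. Some of the 54 genes, Scube3 among them, passed the filter only through the knockout libraries. Their part in the 40 above 0, the 13 without overlap and the 4 at an unadjusted p is no support for a difference.

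Among the ligands, Shh and Ihh had no count in the Ift88 libraries, and in the Dzip1 libraries Shh had 1 count in all and Ihh 5 to 12 per library. Dhh, the ligand of endothelium and Schwann cells in several organs, stood at 5.21 and 110 CPM in the Ift88 wild type and 13.3, 42.9 and 45.8 in the knockout. It was lowest in the wild-type library with few endothelial transcripts and highest in wild-type replicate 2, whose endothelial markers summed to 2360 CPM. Knockout replicate 2 had the highest endothelial sum, 2610 CPM, with Dhh at 42.9 CPM. The part of these markers in the Dhh values was not tested. The log2 fold change of Dhh was -0.76 ± 1.13 (SE; edgeR adjusted p = 0.954). In the Dzip1 experiment Dhh stood at 7.48, 8.11 and 7.26 CPM against 6.64, 6.83 and 6.94, without overlap, with a log2 fold change of -0.16 ± 0.08 (SE; edgeR adjusted p = 0.828). Dhh was the ligand with counts in every library of both experiments.

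Of the genes that release or modify ligands, Hhat, the acyltransferase that attaches palmitate to them, stood at 8.07 and 14.4 CPM in the Ift88 wild type and 16.2, 19.9 and 49.7 in the knockout (edgeR adjusted p = 0.818). Scube2, which helps to release ligand, had a log2 fold change of 1.03 ± 1.12 (SE) there, which was 4.15 without wild-type replicate 1 and 0.11 when replicate 2 was left out instead. In S14R/+ the related Scube3 had -0.42 ± 0.17 (SE; edgeR adjusted p = 0.828), from 6.74, 9.77 and 11.8 CPM in the wild type to 6.64, 7.39 and 7.08. There the Scube3 groups overlapped through wild-type replicate 1. In the Ift88 experiment Hhat separated the genotypes. Scube3 did so too, with no wild-type count and 0.347, 1.58 and 4.22 CPM in the knockout. It passed the filter only through those libraries, so its separation is no support for a difference.

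Among other receptors and ciliary regulators, the glypican gene Gpc6 stood at 6.61 ± 6.22 CPM (SD, n = 2) in the Ift88 wild type and 38.7 ± 4.59 (SD, n = 3) in the knockout, with a log2 fold change of 2.55 ± 0.77 (SE; edgeR adjusted p = 0.802). In S14R/+ it had -0.25 ± 0.09 (SE; edgeR adjusted p = 0.822), with 55.5 ± 7.83 CPM against 46.5 ± 1.39 (SD, n = 3 each). These groups overlapped through wild-type replicate 1, at 46.5 CPM against 46.6, 47.9 and 45.1 in S14R/+. Lrp2, an endocytic receptor, had a log2 fold change of -0.19 ± 0.14 (SE) in S14R/+, which was -0.02 without wild-type replicate 3 and -0.31 without S14R/+ replicate 3, and no count in the Ift88 libraries. The ciliary trafficking gene Tulp3 stood at 1.90 and 2.36 CPM in the Ift88 wild type and at 8.47, 6.32 and 4.18 in the knockout, and Dlg5 had a log2 fold change of 1.91 ± 1.75 (SE), which was 0.88 without wild-type replicate 1 and 8.48 when replicate 2 was left out instead. In S14R/+ Inpp5e, a phosphatase of the ciliary membrane, stood at 36.4, 38.4 and 38.3 CPM against 35.4, 34.4 and 32.3. Its log2 fold change was -0.15 ± 0.05 (SE; edgeR adjusted p = 0.822), and that of Evc, a ciliary partner of Smo, was -0.11 ± 0.05. Of the 15 ciliary regulators, 1 was above 0 in S14R/+ and 10 in the Ift88 knockout, beside 49.9% and 49.4% of all genes. Their median log2 fold change was -0.05 in S14R/+ and 0.40 in the knockout. At an unadjusted edgeR p of 0.05 there were 1 and 0 of them, beside 5.93% and 6.01% of all genes. Of the 10 kinases and ligases 7 and 6 were above 0.

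Of the genes that process Gli proteins, Gsk3b, a kinase that marks them for processing, stood at 29.3 and 16.7 CPM in the Ift88 wild type and 65.5, 87.0 and 51.2 in the knockout. Its log2 fold change was 1.56 ± 0.46 (SE; edgeR adjusted p = 0.802), and that of Cul3, a ubiquitin ligase scaffold, was 1.20 ± 0.55. In S14R/+ the kinase gene Csnk1e had -0.05 ± 0.03 and Prkar1a, the regulatory subunit of protein kinase A, 0.06 ± 0.05. The heart factor Tbx5, listed among further targets, stood at 21.8 and 4.42 CPM in the Ift88 wild type. In the knockout it stood at 47.8, 171 and 150 CPM, with 3.23 ± 0.93 (SE; adjusted p = 0.802 in edgeR and 0.0184 in DESeq2). The 14 cardiomyocyte markers summed to 71200 and 113 CPM in those wild-type libraries, and their part in the Tbx5 values was not tested. Whether Tbx5 is a target of Gli factors in these leaflets was not tested either. Ccnd1, the gene of cyclin D1, had 1.13 ± 0.47 in the same comparison. In S14R/+ Osr1, a factor of mesenchymal progenitors, stood at 5.96, 12.4 and 20.4 CPM against 7.87, 8.48 and 4.84, with -0.87 ± 0.36 (SE; edgeR adjusted p = 0.828) and -0.38 without wild-type replicate 3, while Igfbp6 had -0.57 ± 0.28.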

How the data were processed

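RNA was sequenced from mouse mitral leaflets, and the deposited values are read counts per gene, in 1 table for each experiment. The submitters' processing notes name cutadapt 1.11, FastQC 0.11.5, HTSeq, DESeq and DESeq2, with the builds mm10 and GRCm38, while for aligner, annotation and strand setting the sources used here give nothing. The fold changes and p-values that the authors deposited beside the counts were not used. Samples were grouped by their labels. Each table was tested alone, on the counts as deposited, with edgeR 4.0.16 (quasi-likelihood F test, TMM scaling, filterByExpr) in R 4.3.3. P-values were adjusted by Benjamini-Hochberg over 14244 genes (Ift88) and 16160 genes (Dzip1), with a threshold of 0.05. CPM values were scaled by TMM, and levels per kb used exon lengths from GENCODE M21. Floors for a count of 0 are 3 counts and cover counting error only, as reads are not independent molecules. Alternatives were DESeq2 1.42.0, limma-voom 3.58.1, other scalings, filters and thresholds, leaving out each library, and the title prefix of the Ift88 libraries. The scripts were tested on simulated data. The members and lists were chosen with earlier results of these data known. Besides the members, up to 3 genes of each list were named by the smallest p, among genes with a mean count of at least 50. Of the genes that this rule names, 1 is not reported here.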

Additional observations from a re-analysis of the deposited data

How the results depend on the processing

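No member was called by edgeR, DESeq2 or limma-voom in either experiment under any alternative run, an adjusted p threshold of 0.1 included. In the Ift88 experiment 219 of the recomputed values kept their direction and side of the threshold, 9 changed sign and 1 passed the threshold, that of Tbx5 under DESeq2 (3.16). The sign changed for Smo among the IR28N libraries (0.13) and with the title prefix as a covariate (0.12). With 1 library left out, the log2 fold change ran from -0.13 to 2.23 for Ptch1, from -0.55 to 0.59 for Smo and from -1.33 to 2.33 for Gli1. Without wild-type replicate 1 edgeR called 187 of all genes. The median of all genes was then 0.15, and it was 0.25 without wild-type replicate 2 and 0.23 among the IR28N libraries. The wild-type library that remained was assumed to vary like the knockout libraries. The cause of these changes was not tested. In the Dzip1 experiment 215 values kept their direction and side, and 1 changed sign, that of Cdon, whose log2 fold change ran from -0.0608 to 0.0199 with 1 library left out. Without wild-type replicate 2 edgeR called 10 of all genes, without wild-type replicate 1 it called 2 and without S14R/+ replicate 2 it called 1. No paired analysis was possible because the labels carry no replicate numbers that the groups share. Few counts limit the precision for Hhip in both experiments, and for Gli1, Gli2 and Cdon in the Ift88 libraries. The counts of 0 for Gli1 were in knockout replicates 1 and 3, which had the smallest totals, 31.36 and 23.36 M. Those for Gli2 and Cdon included wild-type replicate 2, which had the largest, 53.79 M. The part of library depth in these counts was not tested.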

Other observations

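The balance of the 3 Gli transcripts within a library, compared per kb of exon, was stable in the Dzip1 experiment. Gli3 made up 57.3% to 63.4% of their sum, Gli2 34.7% to 39.6% and Gli1 1.41% to 3.01%. In the Ift88 experiment the share of Gli1 was 97.9% in wild-type replicate 1 and 8.02% in wild-type replicate 2, and 0%, 29.0% and 0% among the knockouts. Gli3 made up 2.13% and 92.0% in the wild type and 85.7%, 49.9% and 99.7% in the knockout. Wild-type replicate 1 thus lay at an end for these shares and was the library in which Gli1 led. Wild-type replicate 2 lay within the knockout range for Gli1 and Gli3.

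The co-receptors Boc and Cdon stood in a different order in the 2 experiments. Per kb of exon, Boc was 29.6 times the level of Cdon in Ift88 wild-type replicate 1, while wild-type replicate 2 had no Cdon count. The ratio was 10.4, 7.35 and 27.7 in the knockout. In the Dzip1 experiment Boc was 0.561, 0.513 and 0.599 times the level of Cdon in the wild type and 0.496, 0.477 and 0.500 times in S14R/+. The S14R/+ ratios lay below all wild-type ratios. This repeats the lower Boc values, since Cdon overlapped between the genotypes, and is no separate result. No share over other pairs of genes was taken. Smo stood at 109 and 46.4 times Ptch1 in the Ift88 wild type and 19.4, 36.3 and 50.1 times in the knockout, against 6.24 to 7.91 times in the Dzip1 libraries. These ratios are within a library, but the tables were counted separately and the difference between experiments was not tested.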
